A study of Mus musculus with 6 samples.

Results

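The ribosomal protein genes encode the proteins that, with ribosomal RNA, make up the cytoplasmic ribosome. They were chosen by name: a probe set (a set of short probes that reads 1 transcript) was taken where its only gene symbol was Rpl or Rps followed by a number (with a, l, x, l1 or al after it where present), Rplp0, Rplp1, Rplp2 or Rpsa. Of 45037 probe sets, 104 met this rule, and they stood for 48 of 18193 genes. By their symbol alone, 26 of these were placed in the large and 22 in the small subunit. Each gene was described by its brightest probe set, the one with the highest mean over all arrays among those that met the rule. Another 110 probe sets, with several symbols of which at least 1 fitted, were left out, and a gene could have a brighter one there. The median of their means was 14.06 (log2), while Rps16 was read at 3.13 and Rpl39 at 5.96. Rplp1, Rpl5, Rps27a, Rpl10l and Rpl36al had no probe set of their own under the rule and are not described. The rule itself uses no measured change, but the genes were chosen with earlier results of these data known.

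The arrays measured RNA of mammary epithelial organoids, pieces of the ductal and alveolar epithelium freed from the rest of the gland, from 3 WT and 3 KO mice, 1 array per mouse. All mice were 8 weeks old, of a mixed 129/J and C57BL/6 background, and carried floxed Wwox alleles, whose exon 1 lies between loxP sites. The KO mice (KO5, KO6 and KO7) also carried BK5-cre, a Cre recombinase driven by the bovine keratin 5 promoter, which is active from epithelial precursors of the embryo onward, and the WT mice (WT1, WT2 and WT3) did not, so an effect of Cre itself and the loss of Wwox cannot be told apart. Wwox, a putative tumour suppressor, stood at 7.71 ± 0.07 in WT against 6.02 ± 0.19 in KO (mean ± SD, n = 3 each), a log2 change of -1.69 ± 0.13 (SE; adjusted p = 0.0228 by limma). All values here are log2 values made by RMA (robust multi-array average), and all changes are KO minus WT. Of the markers of the labelled tissue, 16 luminal ones had means of 5.04 (Wap) to 14.58 (Krt8) with a median of 11.34, and 12 basal ones of 6.82 (Trp63) to 13.29 with a median of 10.04, against a median of 6.78 over all genes.

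Each ribosome takes 1 copy of nearly every ribosomal protein into its large or its small subunit, so that the genes are expressed in a coordinated way and at high level in growing epithelia. Many of their mRNAs begin with a C followed by a run of pyrimidines (the 5' terminal oligopyrimidine motif), through which mTOR signaling controls their translation. Some genes have paralogues of limited distribution, and some proteins have roles outside the ribosome.

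The start of the transcript is shown for 7 of these genes, because that is where this motif lies: 3 with a run and lower values in KO, 2 with a run and changes near 0 or above it, and 2 without a run and lower values in KO. Each window holds 20 bases before the annotated start and 20 from it on, 5' to 3' on the strand of the gene, taken from the RefSeq promoter table (GRCm38.p6). Capitals mark the run, from the start to the last unbroken C or T.
Rps6: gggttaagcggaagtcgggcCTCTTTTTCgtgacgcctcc
Rps27: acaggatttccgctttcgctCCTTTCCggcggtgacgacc
Rpl14: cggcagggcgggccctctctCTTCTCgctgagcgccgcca
Rps10: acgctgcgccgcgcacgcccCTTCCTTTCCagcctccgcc
Rplp2: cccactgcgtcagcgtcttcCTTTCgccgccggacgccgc
Rpl7l1: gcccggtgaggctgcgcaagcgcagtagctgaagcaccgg
Rpl22l1: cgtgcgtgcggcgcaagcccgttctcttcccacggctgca
The windows lie at chr4:86857348-86857387 (minus strand) for Rps6, chr3:90213629-90213668 (minus) for Rps27, chr9:120571497-120571536 (plus) for Rpl14, chr17:27635225-27635264 (minus) for Rps10, chr7:141447631-141447670 (plus) for Rplp2, chr17:46782637-46782676 (minus) for Rpl7l1 and chr3:28805488-28805527 (plus) for Rpl22l1. Each spans the first base of an annotated transcript and the promoter bases just before it.

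The motif was searched only on the transcript's own strand and only at the annotated start, as a C followed by at least 4 letters that are each C or T. It stood at 8 of 50 starts of 42 ribosomal protein genes (16%), and at 823 of all 32851 starts in the table (2.51%). A start used in the cell can lie a few bases from the annotated one, so a window without a match says nothing of the mRNA. The 8 genes with a match (Rpl14, Rpl35, Rpl38, Rplp2, Rps10, Rps18, Rps27 and Rps6) had log2 changes of -0.58 to 0.10 with a median of -0.13. The 34 genes with a start and no match had a median of -0.08.

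The question of the comparison is whether the mRNAs of the ribosome's proteins stood at other levels in mammary epithelium without Wwox. No ribosomal protein gene passed the limits of a call in limma, 2-fold or more at an unadjusted p under 0.01: 0 of 48 were higher and 0 were lower, against 0.517% and 0.462% of all genes. At an adjusted p under 0.05 (limma, Benjamini-Hochberg over all probe sets) 0 were higher and 0 lower, against 0.0605% and 0.077%. At an unadjusted p under 0.05, 6 genes (12.5%) were lower, against 13% of all genes, and 1 (2.08%) was higher, against 6.17%. These shares lie at or under those of all genes. The median log2 change was -0.07, with 37 genes lower (77.1%) and 11 higher. That of all genes was -0.06, with 61.2% lower.

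What the design allows to be said of the size can be read from the intervals. The 95% interval of the change lay within 0.5 either side of 0 for 38 of the 48 genes and within 1 for 45, where 1 is a 2-fold change. For 7 genes it left out 0. Of the 48 changes, 26 were within 0.1 of 0 and 38 within 0.2.

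**Figure D1:**
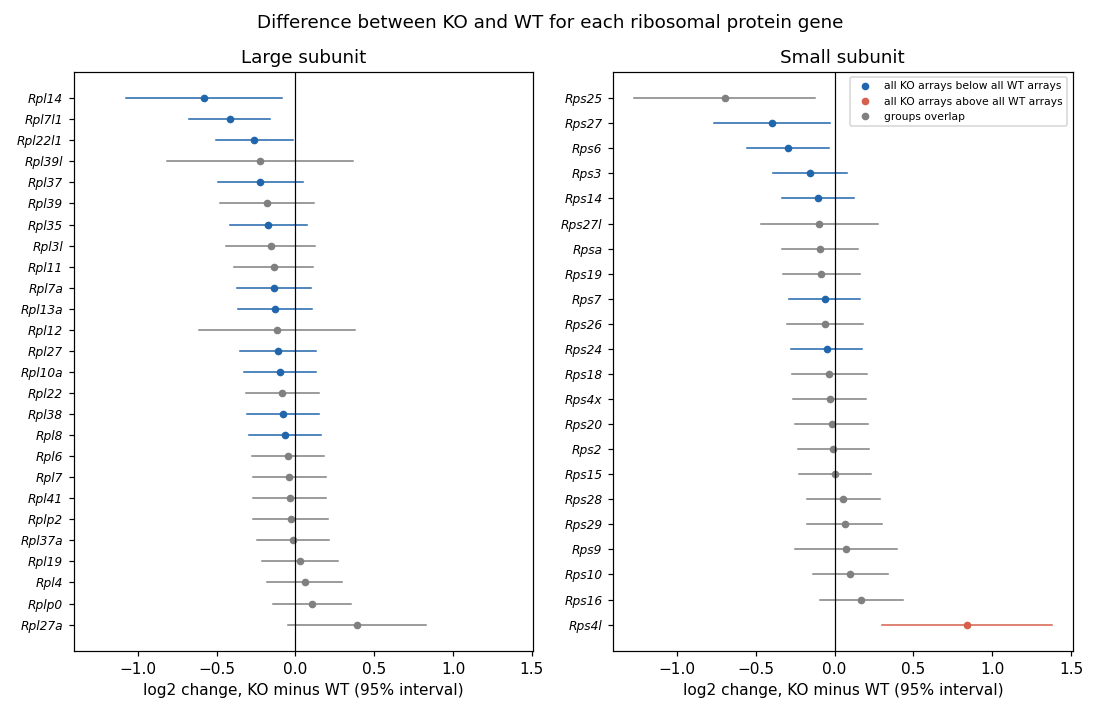
Log2 change (KO minus WT) of each of the 48 ribosomal protein genes on its brightest probe set, with its 95% interval from limma, for the large subunit (left) and the small subunit (right). Blue points, 11 on the left and 6 on the right, are genes whose 3 KO arrays all lay under the 3 WT arrays, the red point is Rps4l, the only gene with all KO arrays above, and grey points are genes whose groups overlap.

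A count by groups that do not overlap gave another picture. In 17 of 48 genes (35.4%) every KO array lay under every WT array, against 16.1% of all genes, and in 1 (2.08%) every KO array lay above, against 7.2%. The 17 comprised 11 large and 6 small subunit genes. Their changes were small, from -0.05 to -0.58 with a median of -0.14, and 11 of them were under 0.2 in size. Of the 17, 5 had an unadjusted p under 0.05. In these bulk samples fewer cells of a type and less RNA per cell cannot be told apart.

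The pooled SD within groups had a median of 0.0597 over the 48 genes and of 0.189 over all genes. The small spread was that of the brightest members: the median was 0.0478 over the 34 genes with a mean of at least 13 and 0.208 over the other 14, and 0.132 over the 114 genes of other kinds with a mean of at least 13. limma moderates the error of each gene toward that of all, and the median SE of the change was 0.102 for ribosomal protein genes and 0.148 for all genes. A change can thus set the groups apart and still be about the size of its moderated SE.

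Most ribosomal protein genes were read at the top of the array's range. Of the 148 genes with a mean of at least 13, a limit chosen after the values were seen, 34 were ribosomal protein genes, and 33 were among the 100 brightest genes of the array. Probe signals that near the top (the highest value on any array was 14.98) can understate a change, and signal does not order transcripts of different probe sets. The 34 bright ribosomal protein genes had a median log2 change of -0.05 (-0.26 to 0.10), with 26 lower and 8 higher, and in 12 of them the groups were apart and lower, in 0 apart and higher. The 114 other genes of that brightness had a median of 0.02, with 53 lower and 61 higher, 14 apart and lower and 19 apart and higher. The 14 ribosomal protein genes with a mean under 13 had a median of -0.20, and 11 of them were lower. The genes with the lowest changes were among these, Rps25 (mean 9.91), Rpl14 (8.82), Rpl7l1 (8.83) and Rps27 (8.79). So were those with the highest, Rps4l (7.40) and Rpl27a (9.32). Whether such dim probe sets read the main transcript of their gene was not tested.

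**Figure D2:**
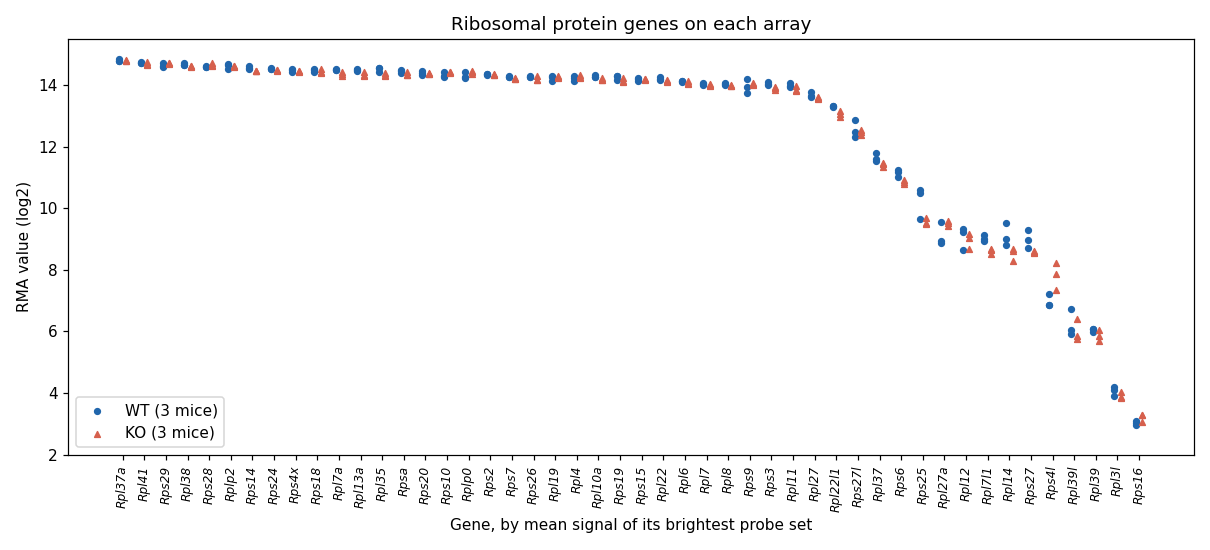
RMA value (log2) of the brightest probe set of each ribosomal protein gene on each of the 3 WT arrays (blue circles) and 3 KO arrays (red triangles), genes ordered by mean signal. From Rpl37a to Rpl22l1 the 34 genes with a mean of at least 13 form a plateau with little spread, and the other 14 genes spread down to Rps16 near 3.

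**Figure D3:**
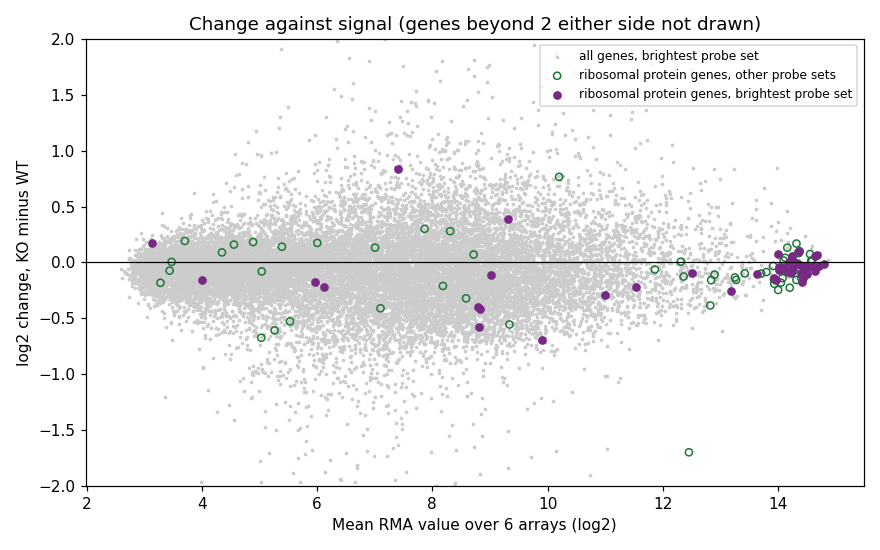
Log2 change (KO minus WT) against the mean RMA value over 6 arrays, for the brightest probe set of 18193 genes (grey), of the 48 ribosomal protein genes (filled) and for the 56 other probe sets of ribosomal protein genes (open). Bright probe sets of ribosomal protein genes lie close to 0, and dimmer ones spread as widely as other genes do.

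The large subunit genes had a median log2 change of -0.10, with 22 of 26 (84.6%) lower. The small subunit genes had one of -0.04, with 15 of 22 (68.2%) lower, and 61.2% of all genes were lower. The difference between the subunits was not tested. As the median deviation of a subunit's genes from their own means, the large subunit stood at 0.04, 0.02 and 0.08 on WT1, WT2 and WT3 and at -0.05, -0.08 and -0.004 on KO5, KO6 and KO7. The KO arrays lay under the WT arrays, with KO7 the nearest to them. The small subunit stood at 0.02, -0.003 and 0.02 in WT and at -0.04, -0.03 and 0.002 in KO, so that KO7 lay above WT2 and the groups overlapped.

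Of the genes placed in the large subunit by their symbol, Rpl7l1 had the lowest p. It encodes the counterpart of a yeast protein that acts early in the assembly of the large subunit. Rpl7l1 was at 9.14, 8.95 and 9.01 on WT1, WT2 and WT3 and at 8.68, 8.53 and 8.64 on KO5, KO6 and KO7, with no overlap. Its log2 change was -0.42 ± 0.11 (SE; adjusted p = 0.111). Its other probe sets were both lower as well, by changes of -0.32 (adjusted p = 0.21) and -0.41 (adjusted p = 0.142), and in all 3 probe sets every KO array lay under every WT array. All 3 read RNA of the same mice and are not independent.

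Rpl14, another large subunit protein, was at 8.79, 8.99 and 9.54 in WT and at 8.61, 8.28 and 8.69 in KO. The groups lay apart, with WT3 well above the other WT arrays, and the log2 change of -0.58 ± 0.21 (SE) had an adjusted p of 0.198. Rpl22l1, the paralogue of the RNA-binding protein Rpl22, was at 13.29, 13.34 and 13.33 in WT and at 13.05, 12.97 and 13.16 in KO. Its arrays lay apart in tight groups, with a log2 change of -0.26 ± 0.10 (SE; adjusted p = 0.231). Rpl22 itself had a log2 change of -0.08 on its brightest probe set, with overlapping groups.

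Rpl27a had the highest change of the large subunit genes. It was at 8.87, 9.54 and 8.95 in WT and at 9.59, 9.41 and 9.53 in KO, a log2 change of 0.39 ± 0.19 (SE; adjusted p = 0.307). WT2 lay among the KO arrays. Rpl37a and Rpl41, which had the brightest probe sets of the 48 genes, had log2 changes of -0.01 and -0.04 with overlapping groups.

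The proteins of the P stalk, which recruit the GTPases of elongation to the large subunit, were read for Rplp0 and Rplp2. Rplp0 was at 14.42, 14.24 and 14.25 in WT and at 14.44, 14.37 and 14.41 in KO, a log2 change of 0.10 (95% interval -0.15 to 0.35). Rplp2 had a log2 change of -0.03 (95% interval -0.27 to 0.21). Both groups of arrays overlapped for each gene. Rpl11, which can bind the p53 ubiquitin ligase Mdm2 as part of the 5S particle, was at 13.97, 13.95 and 14.08 in WT and at 13.83, 13.80 and 13.96 in KO, a log2 change of -0.14 (95% interval -0.39 to 0.11), with KO7 just above WT2.

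Of the small subunit genes, Rps25 had the lowest change, on a dim probe set with a mean of 9.91. The median of the means of all ribosomal protein genes was 14.2. Rps25 lies in the head of the subunit and takes part in initiation at some internal ribosome entry sites. It was at 9.65, 10.61 and 10.51 in WT and at 9.53, 9.48 and 9.67 in KO. WT1 lay with the KO arrays, and the log2 change was -0.70 ± 0.25 (SE; adjusted p = 0.187). Without WT1 the log2 change was -0.998, with an adjusted p of 0.00928 by limma (0.00928 to 1 over its 16 alternatives). In that setting 4.06% of all genes were lower at an adjusted p under 0.05, against 0.077% with all arrays. With the difference between the 3' and 5' ends of control transcripts as a covariate, the log2 change of Rps25 was 0.21. That difference was smaller on every KO array than on every WT array, so it and genotype cannot be told apart.

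Rps6, the substrate of the S6 kinases downstream of mTOR, was at 11.01, 11.17 and 11.25 in WT and at 10.91, 10.80 and 10.84 in KO. The groups lay apart, and the log2 change was -0.29 ± 0.11 (SE; adjusted p = 0.211). A dimmer probe set of Rps6, described after its values were seen, was at 5.74, 5.88 and 5.76 in WT and at 5.25, 5.40 and 5.15 in KO, a log2 change of -0.53 (adjusted p = 0.0789). Rps27, a zinc-binding protein of the small subunit, was at 8.70, 8.97 and 9.28 in WT and at 8.56, 8.63 and 8.57 in KO, a log2 change of -0.40 ± 0.16 (SE; adjusted p = 0.227). Its KO arrays lay close together just under the lowest WT array, WT1. With the covariate the log2 changes of Rps6 and Rps27 were -0.12 and -0.05, and that of Rpl14 was -0.27. Without WT3 that of Rps27 was -0.25 and that of Rpl14 -0.365.

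Rps4l was the only ribosomal protein gene with all KO arrays above all WT arrays on the brightest probe set. It resembles the X-linked Rps4x, and the RefSeq gene table gives it as a transcribed pseudogene on chromosome 6, whereas the other 47 genes are listed as protein coding. Rps4l was at 6.85, 6.86 and 7.23 in WT and at 7.35, 7.88 and 8.23 in KO, a log2 change of 0.84 ± 0.23 (SE; adjusted p = 0.118). It missed the 2-fold limit, and passed it without KO5, at 1.07. Rps4x, the expressed gene it resembles, had a log2 change of -0.03 with overlapping groups. The value is uncertain, since probes can bind transcripts of a related copy.

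Rps16, Rps9, Rps10, Rps29 and Rpsa had overlapping groups. Rps16 was dim on its probe set, at 2.97, 3.10 and 3.04 in WT and at 3.28, 3.28 and 3.07 in KO, and its value is near the lower end of the array's range. Rps9 and Rps10 had log2 changes of 0.07 and 0.10. Rps29 had one of 0.06, and its 3 probe sets all lay between 0.06 and 0.09. Rpsa, a small subunit protein also known as the laminin receptor, had a log2 change of -0.09 (95% interval -0.34 to 0.15).

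Of the 5 genes listed as paralogues, Rpl7l1 and Rpl22l1 were lower at an unadjusted p under 0.05 in limma, as given above. In the other 3 the groups overlapped. Rpl22l1 and Rps27l were bright here, with means of 13.19 and 12.51. Rpl39l, a paralogue of the exit tunnel protein Rpl39 known from testis, was at 6.05, 5.92 and 6.72 in WT and at 6.39, 5.86 and 5.76 in KO, a log2 change of -0.22 with a 95% interval of -0.82 to 0.37. Rpl39 had a log2 change of -0.18, with overlapping groups. Rpl3l, the paralogue of Rpl3 in striated muscle, stayed dim, at 3.91, 4.20 and 4.11 in WT and at 4.02, 3.89 and 3.85 in KO. Rps27l, a p53-inducible paralogue of Rps27, had a log2 change of -0.10, and -0.13 and 0.01 on its other probe sets.

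The counts were also taken over all 104 probe sets, the brightest included. At an unadjusted p under 0.05, 14 (13.5%) were lower, against 9.74% of all 45037 probe sets, and 2 (1.92%) were higher, against 9.54%. Groups were apart and lower in 38 (36.5%), against 13.6%, and apart and higher in 4 (3.85%), against 10.7%. Probe sets of 1 gene share mice and transcripts, and 70 of the 104 carry a mark in their identifier that their probes may bind more than 1 transcript. Of the brightest probe sets, 64.6% carried such a mark for ribosomal protein genes and 21% for all genes.

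Of the 24 genes with several probe sets, 11 had changes of 1 sign on all of them. The genes below were picked after their values were seen, to show where probe sets of a gene differ. Rps20 had a log2 change of -0.02 on its brightest probe set and of -0.67 (adjusted p = 0.0675) on its dimmest, which was at 5.30, 5.32 and 5.49 in WT and at 4.75, 4.48 and 4.84 in KO. Rps3, which lines the mRNA entry channel, had log2 changes of -0.15 on its brightest probe set and of -0.56 (adjusted p = 0.0995) on the next. In both genes the groups were apart on the dimmer probe set.

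Rpl22 differed in sign between its probe sets: the dimmest was at 10.51, 9.34 and 9.61 in WT and at 10.64, 10.51 and 10.60 in KO, a log2 change of 0.77 (adjusted p = 0.198), while the other 2 were at -0.08 and -0.10. WT1 lay close to the KO arrays on it. A probe set of Rps9 had a log2 change of -1.70 with an adjusted p of 0.44, with KO5 at 8.69 and all other arrays between 13.04 and 13.53.

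**Figure D4:**
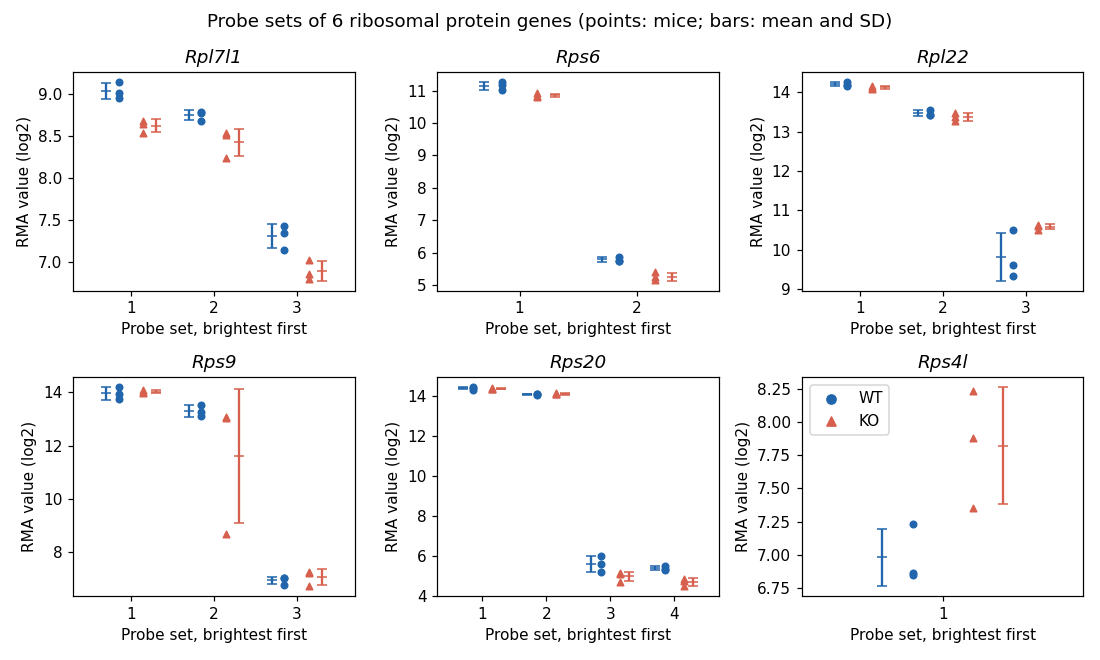
RMA values (log2) of all probe sets of 6 ribosomal protein genes, brightest first, on WT arrays (blue circles) and KO arrays (red triangles), with the mean and SD of 3 mice beside them. All 3 probe sets of Rpl7l1 are lower in KO, those of Rpl22 and Rps20 differ among themselves, and 1 KO array stands apart on the second probe set of Rps9.

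Genes that make ribosomes were read from lists beside those of the ribosome's own proteins. None of 71 ribosome biogenesis factors, which process ribosomal RNA and assemble subunits in the nucleolus, passed the limits of a call or an adjusted p under 0.05 in limma. At an unadjusted p under 0.05, 33 of the 71 (46.5%) were lower, against 13% of all genes, and 1 was higher, with a median log2 change of -0.27. The groups were apart and lower in 38 of them (53.5%, against 16.1%). Their mean level was between 9.13 and 9.21 in WT and between 8.85 and 8.94 in KO, so that all KO arrays lay under all WT arrays. With the 3' to 5' difference of control transcripts as a covariate, 9 of the 71 were lower at that limit, against 3.36% of all genes.

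The RNA polymerase I apparatus, which transcribes ribosomal RNA, had a median log2 change of -0.22, and 7 of 18 genes (38.9%) were lower at an unadjusted p under 0.05 and 1 (5.56%) was higher, against 13% and 6.17% of all genes, which hold for the lists that follow too. Host genes of the small nucleolar RNAs that guide its modification had a median of -0.27, with 3 of 12 (25%) lower and 0 higher. Translation initiation factors had a median of -0.03, with 4 of 34 (11.8%) lower and 2 (5.88%) higher, close to the shares of all genes, and elongation and release factors one of -0.08, with 1 of 10 lower and 1 higher. Regulators of mTOR and of mRNAs with the pyrimidine motif had a median of 0.12, with 2 of 20 (10%) lower and 4 (20%) higher. Genes of p53 and nucleolar stress had a median of 0.16, with 1 of 11 lower and 1 higher. The difference between these lists and the ribosomal protein genes was not tested.

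Mitochondrial ribosomal proteins, which form the separate ribosome of mitochondria, had a median log2 change of -0.35, and 27 of 76 (35.5%) were lower at an unadjusted p under 0.05, against 13% of all genes, and 0 higher, against 6.17%. The gene called among them was Mrpl41, at 9.87, 10.50 and 10.81 in WT and at 9.29, 8.90 and 9.21 in KO, a log2 change of -1.26 ± 0.24 (SE; adjusted p = 0.067). The mean level of the list spread over 9.15 to 9.64 in WT and 8.83 to 9.16 in KO. KO7 lay just above WT1. With the covariate of control transcripts 0 of the 76 were lower at that limit, and without KO6 it was 12, where 9.55% of all genes were lower.

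**Figure D5:**
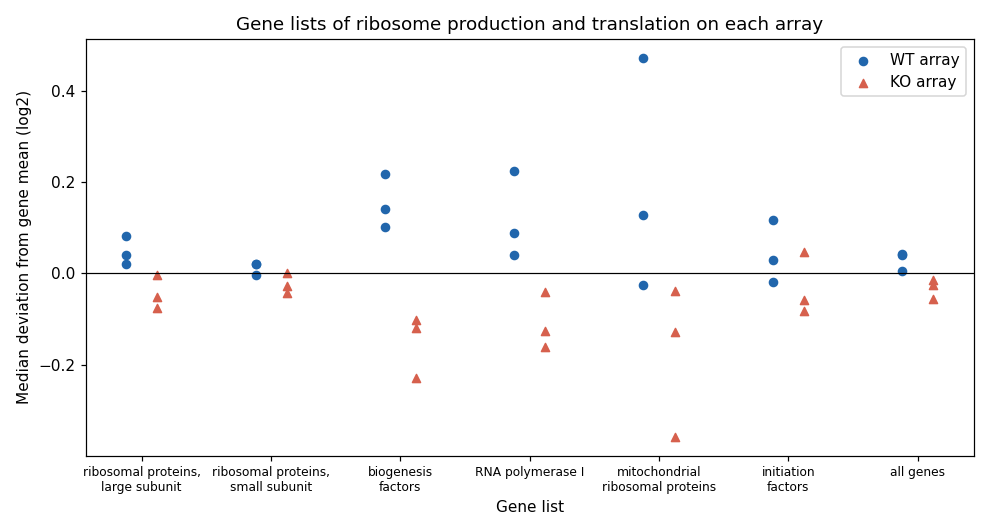
Median deviation of the genes of each list from their own mean over 6 arrays (log2), on each WT array (blue circles) and KO array (red triangles). Biogenesis factors and the RNA polymerase I list separate the groups by more than the ribosomal proteins of either subunit do, and of the lists drawn the mitochondrial ribosomal proteins spread most among arrays.

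Measures of RNA quality and the mean level of endothelial markers set the groups apart. The mean levels of the other marker lists overlapped between the groups. The excess of 3' over 5' signal in control transcripts grows as RNA is shortened, and for Gapdh it stood at 0.95, 2.41 and 1.79 in WT against 0.40, 0.56 and 0.46 in KO (two-sided exact permutation p = 0.1, the lowest value the design can give). The control probe set at the 3' end of 18S rRNA, the RNA of the small subunit, was at 9.38, 8.57 and 8.81 in WT and at 10.81, 10.48 and 11.12 in KO (two-sided exact permutation p = 0.1). Of 15 endothelial markers 3 were called higher (Flt1, Tie1 and Cldn5) and 9 (60%) were higher at an unadjusted p under 0.05, against 0.517% and 6.17% of all genes, and their mean level was between 8.98 and 9.47 in WT and between 9.67 and 10.14 in KO. Of 18 fibroblast markers 2 were called higher (Col1a1 and Fbln2) and 6 (33.3%) were higher at an unadjusted p under 0.05 in limma. Their mean levels were 10.31 to 10.41 in WT and 10.32 to 11.09 in KO. KO5 and KO6 were at 11.04 and 11.09, and KO7, at 10.32, lay within the WT range. Macrophage, dendritic and lymphocyte markers stood between 6.92 and 8.89 in WT and between 6.62 and 7.97 in KO, with a median log2 change of -0.76. All 22 were lower, 1 of them called (Tyrobp), and the groups overlapped in 21. Luminal and basal markers had medians of 0.06 and 0.02, with Ltf called lower, adipocyte markers one of 0.17 and muscle markers one of 0.005. Their part in the values of the ribosomal protein genes was not tested. With the covariate, 1 ribosomal protein gene was lower at an unadjusted p under 0.05, against 3.36% of all genes. The covariate, the mean of the Gapdh and beta-actin differences, was 0.965, 2.132 and 1.805 in WT and 0.552, 0.597 and 0.543 in KO. The groups did not overlap in it, so RNA quality and genotype cannot be told apart.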

How the data were processed

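RNA of each mouse was hybridised to a whole-genome Affymetrix mouse array. The log2 values deposited by the authors came from RMA, whose version is not given in the sources used here: it subtracts background, brings all arrays to the same distribution of probe signals and combines the probes of a set into 1 value. simpleaffy and limma are named in their methods. The values were used as deposited. Of 45101 probe sets, 64 controls were left out of the tests and 34945 carried 1 gene symbol in the platform annotation, 932 several and 9160 none. Genes, chromosomes and transcript starts were matched to RefSeq (GRCm38.p6), where all 48 ribosomal protein genes had a row.

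The difference between KO and WT was fitted by lmFit and eBayes of limma 3.58.1, under R 4.3.3, over all 45037 probe sets and 6 arrays and no covariate. P-values rest on a moderated error, which joins the spread of a probe set between these mice with that of all probe sets. For the 34 bright ribosomal protein genes the median SE was 0.1, beside a median pooled SD of 0.0478. The number of arrays limits the precision. The step was tested on simulated data. Named members were those called, the 6 highest and 6 lowest changes, and the 3 brightest and 3 dimmest genes. The listed paralogues, the P stalk, Rpsa and Rpl11 were named too, and, in other lists, up to 3 called genes. Members and lists were chosen with earlier results of these data known, and list counts carry no test. Alternatives were other normalizations, a minimum mean of 6, a trended robust prior, array weights, a 3' to 5' covariate, other probe sets of a gene, other limits, the replicate block and each array left out. Figures were drawn in matplotlib 3.10.9.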

Additional observations from a re-analysis of the deposited data

How the results depend on the processing

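Without 1 array, 0 to 1 ribosomal protein genes were called higher (1 without KO5, Rps4l), 0 were called lower, 0 were higher and 0 to 1 lower at an adjusted p under 0.05 (1 without WT1, Rps25), and 1 to 2 were higher and 1 to 5 lower at an unadjusted p under 0.05. The last count was 5 without WT1, 4 without KO7, 2 without WT2 or KO5 and 1 without WT3 or KO6, against 6 with all arrays. Of all genes, 16.2% were lower at that limit without WT1, 10.6% without KO7 and 8.45% without WT2. The share was 9.35% without KO5, 11.3% without WT3 and 9.55% without KO6. Between 3.71% and 8.79% of all genes were higher. At an adjusted p under 0.05, 4.06% of all genes were lower without WT1. The median ranged from -0.0796 to -0.0561, the large subunit's from -0.116 to -0.0702 and the small subunit's from -0.0558 to -0.0253. Lower biogenesis factors ranged from 27 to 34 (median -0.31 to -0.23) and lower mitochondrial ribosomal proteins from 12 to 38 (median -0.47 to -0.2), with 17 without WT2, 15 without WT3 and 12 without KO6. The covariate of RNA quality cannot be told apart from genotype here, since its values did not overlap between the groups. With it, 1 ribosomal protein gene, 9 biogenesis factors and 0 mitochondrial ones were lower at an unadjusted p under 0.05, against 3.36% of all genes. The change of Rps25 was then 0.209. A minimum mean of 6 left 3 lower. Cyclic loess and the mean of all probe sets each gave 2 higher, and with cyclic loess 7.56% of all genes were higher. For the minimum mean and the mean of all probe sets the share of all genes is not given here. The large subunit's median was -0.0731 with cyclic loess, and the small subunit's -0.0706 with the mean of all probe sets and -0.0940 on probe sets without a mark, where that of all members was -0.103. With a limit of 1.5-fold 1 gene (Rps4l) was called. The cause of these moves was not tested. Most members sit near the top of the array's signal, which limits how far a change can be read.

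The labels do not say whether the replicate numbers pair the mice. The deviations of same-numbered WT and KO arrays correlated at -0.155, 0.16 and 0.0994, and not every array correlated best with its own number. With 3 arrays per group these values cannot exclude a pairing. With the number as a block, 4 ribosomal protein genes were lower and 1 higher at an unadjusted p under 0.05, and 0 were called. Of all genes, 12.8% were lower and 6.39% higher at that limit with the block.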

Other observations

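Another 110 probe sets carried several gene symbols, at least 1 of which fitted the pattern of a ribosomal protein gene, and were not used. Their median log2 change was -0.06 (-0.75 to 0.37), with 84 lower (76.4%, against 56.3% of all probe sets) and 26 higher. At an unadjusted p under 0.05 in limma, 10 were lower and 0 higher, against 9.74% and 9.54% of all probe sets, so that the lower share is near that of all. The groups were apart and lower in 47 of them (42.7%), against 13.6% of all probe sets, and apart and higher in 2 (1.82%), against 10.7%. They share mice, and may share transcripts, with the 104 probe sets of the ribosomal protein genes.

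The ribosomal protein genes lie on 17 chromosomes, with 7 on the one that carries most, and have a median gene length of 3451.5 bases, against 20331.5 for 18032 genes on the array.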
